A study of Mus musculus with 4 samples.

Results

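Cytochrome P450 genes were followed across the cells of inflamed mouse kidneys. Members were all gene symbols in the count matrix that match Cyp, a number, a single letter and a number in full, without Cyp4a10 and Cyp4a14. The rule gave 44 of 16706 genes, among 50 symbols that begin with Cyp and a digit. Cyp4a12a, Cyp4a12b, Cyp2ab1 and Cyp51 did not match it. The members comprise 20 genes of family 2, 10 of family 4, 3 of families 1 and 3, 4 vitamin D enzymes, 4 sterol or bile acid enzymes, 2 retinoic acid hydroxylases and Cyp20a1, whose substrate is not established. All 44 were located in GENCODE vM21 (GRCm38, mm10), and 24 of them lie in 6 genomic clusters whose neighbouring members are at most 500000 bases apart. The largest of these clusters holds 7 Cyp2j genes on chromosome 4, between 96027534 and 96664154.

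P450 enzymes are haem proteins that insert an oxygen atom into a substrate, using electrons passed on by P450 reductase in the endoplasmic reticulum or by ferredoxin in mitochondria. In the kidney, family 4 enzymes hydroxylate fatty acids, and Cyp2c and Cyp2j enzymes turn arachidonic acid into epoxides that act on vessels and salt transport. The proximal tubule also makes active vitamin D with Cyp27b1 and breaks it down with Cyp24a1.

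Kidney cells of male C57Bl/6 mice, aged 9 weeks, were separated into droplets and the 3′ ends of their transcripts sequenced cell by cell. Every animal carried Pax2.rtTA;TetO.Cre;R26.Confetti, an inducible Cre driven from the Pax2 promoter with a multicolour reporter, and every animal received anti-GBM serum, which induces crescentic glomerulonephritis, so that no healthy kidney enters these comparisons. Treatment began on day 1 and kidneys were taken on day 7. One group had distilled water as vehicle, and one each the histone deacetylase inhibitors panobinostat (15 mg/kg) and givinostat (10 mg/kg) or the JAK1 and JAK2 kinase inhibitor ruxolitinib (60 mg/kg). Each group has 2 animals and 1 library per the labels, which do not state whether the library pools both. The vehicle library was identified by elimination, because its name in the matrix appears in no label.

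After filtering, 15777 cells remained, 3472 to 4396 per library, with 36861583 to 45075309 unique molecular identifiers (UMIs) per library. The median UMIs per proximal tubule-like cell were 9779 (vehicle), 7674.5 (panobinostat), 12905 (givinostat) and 10380 (ruxolitinib). The cells fell into 31 clusters when the members were left out of the clustering, and markers gave a name to 27 of them; 19 cell barcodes occurred in more than 1 library. Proximal tubule-like cells numbered 1799, 2526, 1199 and 1759 in the same order of libraries, and none of the clusters was podocyte-like. The givinostat and ruxolitinib libraries also stood apart from the other two in Tpm3-rs7, a Tpm3 gene copy, at 1.61, 1.86, 16.8 and 23.3 CPM (UMIs of a gene scaled to 1000000 UMIs of the class) in proximal tubule-like cells. With 1 library per group no test was possible: all intervals are 95% intervals for counting error only, a difference is one between libraries, and all drug ratios share the vehicle library. Values of the 4 libraries are given below in the order vehicle, panobinostat, givinostat and ruxolitinib. Levels are sums over the cells of a class, so the mix of cells within it can move them.

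Proximal tubule-like cells held the highest level of 18 of 44 members, and the other 26 were highest in 10 further classes. No share of all genes stands beside this count, so it describes the members only and shows no preference of P450 genes. Of the 18, 14 are among the 31 members described below. Of the members, 31 reached at least 20 CPM in some class and library or passed 1.5-fold in proximal tubule-like cells or a segment, and these are described one by one. The remaining 13 had 23 to 191 UMIs in all cells together and stayed at or below 14.5 CPM in every class with at least 50 cells in a library. Neutrophil-like cells, at 18 to 28 per library, are outside that limit and were read only over all libraries summed. Among those, Cyp3a13 was highest in intercalated-like cells, Cyp2b10 and Cyp2f2 in fibroblast or mural-like cells, Cyp2r1, the vitamin D 25-hydroxylase, in macrophage-like cells, Cyp8b1, the bile acid 12-alpha-hydroxylase, in dendritic-like cells, Cyp46a1 and Cyp4f17 in loop of Henle-like cells, and Cyp26a1 and Cyp2c69 in neutrophil-like cells. Most of these maxima rest on few UMIs and do not separate from the next class.

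**Figure D1:**
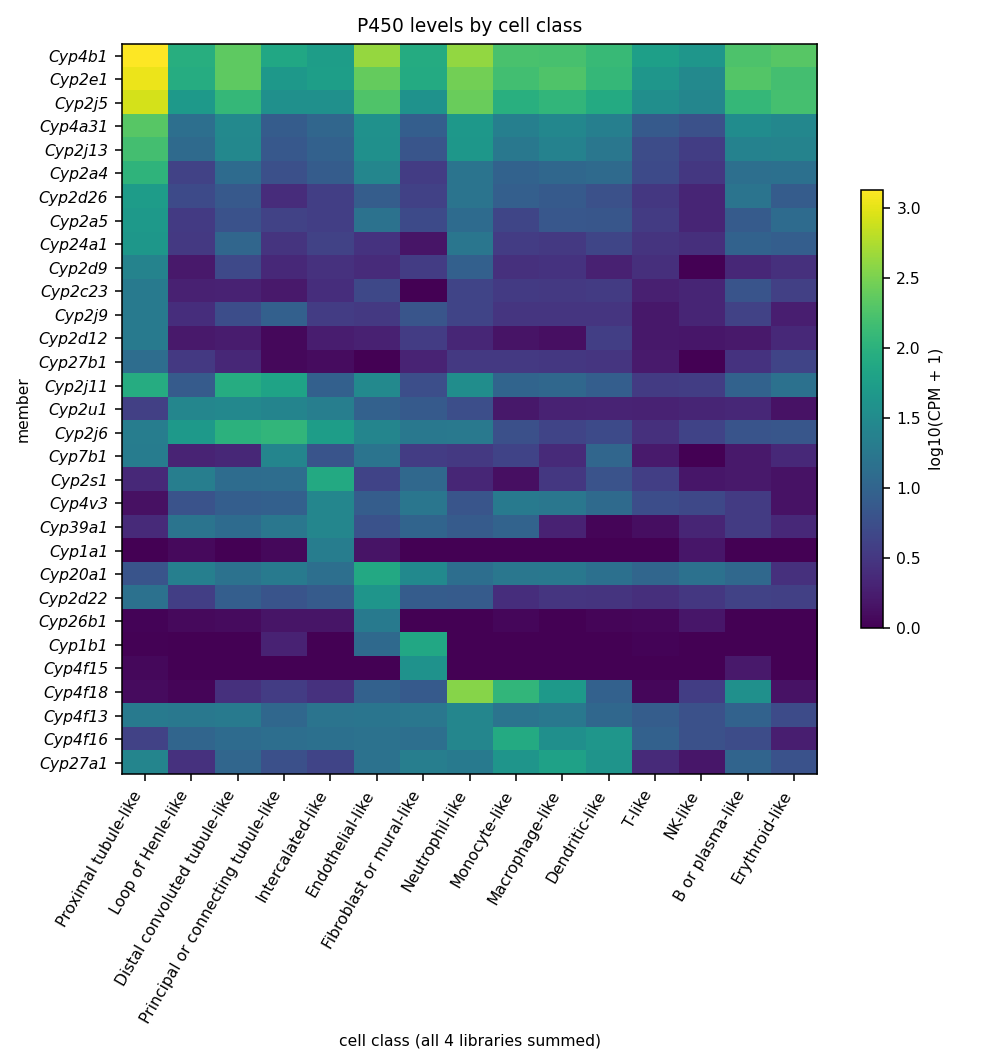
Level of the 31 individually described members (vertical axis) in each named cell class (horizontal axis), over all 4 libraries summed; the colour is log10(CPM + 1). Cyp4b1, Cyp2e1 and Cyp2j5 are brightest in proximal tubule-like cells, Cyp4f18 in neutrophil-like cells and Cyp2j6 in principal or connecting tubule-like cells.

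UMIs of transcripts from lysed tubule cells can enter any droplet, so the level in T-like cells, which should lack these enzymes, was taken as background. Over 8 members the T-like level had a median of 3.26%, 4.46%, 3.37% and 3.82% of the proximal tubule-like level (vehicle, panobinostat, givinostat and ruxolitinib). Cyp4b1, Cyp2e1 and Cyp2j5 stood at 4.31%, 3.94% and 4.06% of their proximal tubule-like level in T-like cells of all libraries. In endothelial-like cells these 3 genes stood at 31.6%, 22.2% and 21.8%, and in neutrophil-like cells at 30.6%, 25.9% and 31.0%. Levels of these proximal tubule genes in other classes were not read as expression there, and the part of free RNA in them was not tested.

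The P450 members together took 4387, 4302, 4437 and 3793 CPM of proximal tubule-like cells. Family 4 and family 2 carried nearly all of it: Cyp4b1, Cyp2e1 and Cyp2j5 made up 78.2%, 78.9%, 80.2% and 75.9% of the members' UMIs. Levels were not divided by transcript length, since each UMI counts 1 transcript end, and differences between genes also depend on how well each end was captured.

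Among the fatty acid hydroxylases of family 4, Cyp4b1 (chromosome 4, 115624725 to 115647723) was at 1520, 1423, 1356 and 1123 CPM in proximal tubule-like cells. Cyp4a31 was at 238, 191, 227 and 183 CPM, and Cyp4f13 at 18.5, 16.4, 18.4 and 21.3 CPM. The vehicle library was highest for Cyp4b1 and Cyp4a31 and the ruxolitinib library lowest. Cyp4a31 shares 5.99% of the 50-base stretches of its last 500 transcript bases with other genes, chiefly with Cyp4a10, so part of its reads may not have been countable. Cyp4f13 was also found in neutrophil-like cells at 26.4 CPM, from 23 UMIs.

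Among the family 2 enzymes, Cyp2e1 (chromosome 7, 140763739 to 140774987), which oxidises ethanol, acetone and fatty acids, was at 1094, 1155, 1258 and 942 CPM. The epoxygenase Cyp2j5 (chromosome 4, 96628773 to 96664154) was at 817, 817, 945 and 813 CPM. The givinostat library was highest for both; the ruxolitinib library was lowest for Cyp2e1, while the other 3 libraries were nearly level for Cyp2j5. The other Cyp2j genes of the same genomic cluster covered a wide range: Cyp2j13 was at 160, 152, 171 and 137 CPM, Cyp2j11 at 84.7, 78.6, 97.4 and 87.6 CPM, Cyp2j6 at 21.3, 16.3, 21.3 and 21.5 CPM and Cyp2j9 at 16.1, 16.0, 24.6 and 18.7 CPM. Cyp2j7 and Cyp2j8 stayed below 2 CPM in these cells. The arachidonic acid epoxygenase Cyp2c23 was at 15.8, 17.2, 19.2 and 22.5 CPM, highest in the ruxolitinib library.

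The 4 Cyp2d members lie in 1 genomic cluster on chromosome 15, between 82370527 and 82794294, with other Cyp2d genes and pseudogenes among them. Cyp2d26 was at 44.4, 55.2, 45.0 and 65.2 CPM, and Cyp2d9, a testosterone hydroxylase, at 26.2, 23.8, 27.2 and 20.9 CPM. Cyp2d12 was at 19.6, 19.2, 21.5 and 13.8 CPM and Cyp2d22 at 14.2, 11.8, 13.9 and 14.9 CPM. The 4 genes thus did not share 1 order of libraries: ruxolitinib was highest for Cyp2d26 and lowest for Cyp2d9 and Cyp2d12. Cyp2d9, Cyp2d12 and Cyp2d26 share 23.9%, 19.5% and 25.7% of their last 50-base stretches with other genes, and their separate levels are uncertain to that extent.

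**Figure D2:**
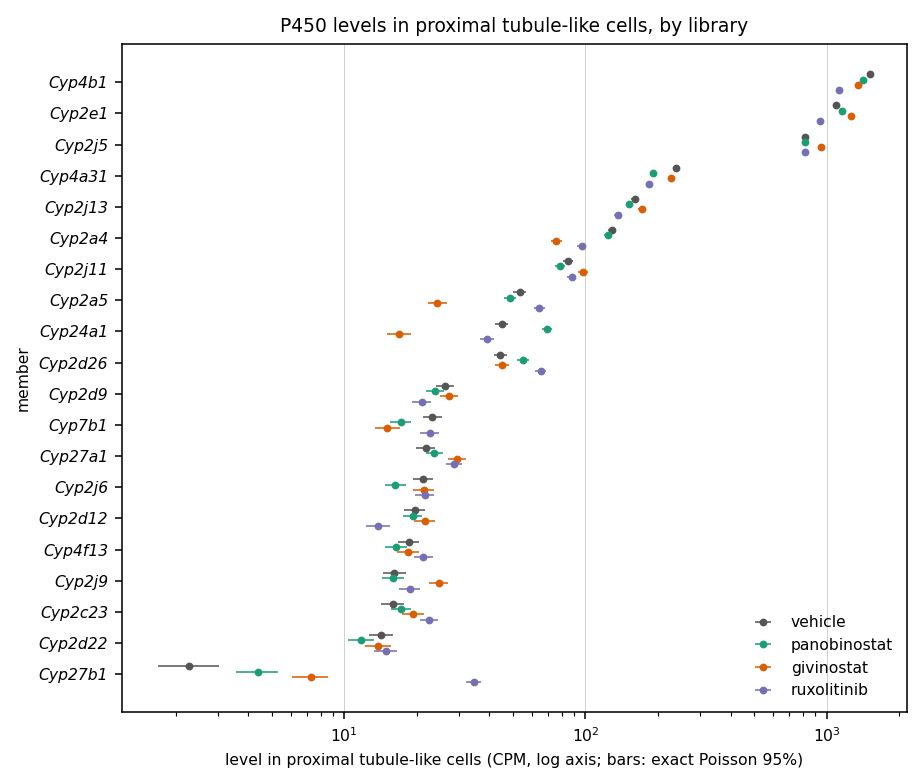
Level of the 20 members with at least 10 CPM in some library in proximal tubule-like cells (log axis, CPM), one point per library with its exact Poisson 95% interval. The 4 libraries lie close together for Cyp2j5 (813 to 945 CPM) and Cyp2j11 (78.6 to 97.4 CPM) and far apart for Cyp27b1 (2.28 to 34.4 CPM) and Cyp24a1 (16.9 to 69.5 CPM).

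The proximal tubule has an early part, S1, and a late part, S3, in the outer medulla. Clusters 3, 4 and 6 carried S1 markers and held 606, 936, 348 and 765 cells; cluster 20 carried S3 markers and held 74, 78, 46 and 87 cells. The glucose carrier Slc5a2 was at 625 CPM in S1-like, 10.4 CPM in S3-like and 9.34 CPM in T-like cells, and the S3 carrier Slc7a13 at 9.76, 1018 and 11.4 CPM. No cluster met the S2 markers at this setting, and clusters 0, 1, 8 and 9 were assigned to no segment. This depended on the setting. A stricter cell filter (500 genes, 1000 UMIs and under 20% mitochondrial UMIs) with new clusters gave 645 S2-like cells, at 124, 214, 148 and 159 per library. Because the segments were defined from genes of the same cells, differences between them are given as a description. Segments were compared within the vehicle, panobinostat and ruxolitinib libraries, since the givinostat library had under 50 S3-like cells.

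The P450 total was at 3402, 3230 and 2842 CPM in S1-like and 3419, 3280 and 3182 CPM in S3-like cells (vehicle, panobinostat and ruxolitinib). Its intervals overlapped between the segments in the vehicle and panobinostat libraries but not in the ruxolitinib library, at 2806 to 2878 CPM in S1-like and 3077 to 3289 CPM in S3-like cells. The clusters assigned to no segment stood higher than both, at 4900, 4956 and 4531 CPM. In the vehicle library Cyp4b1, Cyp2e1 and Cyp2j13 were highest in cluster 8, at 2051, 1325 and 248 CPM, and Cyp2a5 in cluster 0, at 76.3 CPM, so S1-like and S3-like cells do not span the levels of these genes. Of 19 members with enough UMIs, 5 were at least 1.5-fold higher in S3-like cells in all 3 libraries, against 5.38% of all genes, and 10 were higher in S1-like cells, against 32.2% of all genes. S3-like cells had a few very abundant transcripts, with the androgen-regulated Kap at 121497 CPM in the vehicle library, and the median gene stood at a log2 ratio of S3-like to S1-like cells of -0.43, -0.42 and -0.44. Divided by that median, 6 members were higher in S3-like cells (10.8% of all genes) and 7 in S1-like cells (16.9%). Mitochondrial UMIs made up 23.7%, 24.2% and 25.5% of S3-like and 17.2%, 15.6% and 15.3% of S1-like cells, and their part in the differences was not tested.

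Cyp7b1 (chromosome 3, 18071950 to 18243338), the oxysterol 7-alpha-hydroxylase, was the member most restricted to S3-like cells. There 543, 508 and 447 CPM were measured, against 0.946, 0.249 and 0.347 CPM in S1-like cells, where only 6, 2 and 3 UMIs were counted; the vehicle ratio was 574 [262 to 1571]. At least 1 Cyp7b1 UMI was found in 55 of 74, 59 of 78 and 61 of 87 S3-like cells, but in 6 of 657, 1 of 358 and 2 of 452 T-like cells. Cyp7b1 led the list of genes of cluster 20 although members were left out of the clustering. The gene was also present in principal or connecting tubule-like cells, at 25.7, 27.8 and 27.9 CPM.

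Cyp2d9 was at 164.5, 154 and 174 CPM in S3-like cells against 0.946, 1.62 and 2.08 CPM in S1-like cells, ratios of 174, 94.8 and 83.3. Cyp2j11 was 5.43, 4.76 and 4.82 times and Cyp4a31 2.51, 2.43 and 2.46 times as high in S3-like as in S1-like cells. The other Cyp2d members of its genomic cluster on chromosome 15 went the other way. Cyp2d26 was at 104, 123 and 120 CPM in S1-like cells and 1.14, 3.94 and 10.0 CPM in S3-like cells. Cyp2d12 was at 47.8, 38.3 and 26.4 CPM in S1-like cells, from 303, 307 and 228 UMIs, and had 0, 3 and 5 UMIs in S3-like cells. Against the 3 UMIs that a count of 0 allows, Cyp2d12 was at least 13.9-fold higher in S1-like cells of the vehicle library, and 9.71 and 5.78 times as high in the panobinostat and ruxolitinib libraries.

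Cyp2a4, a testosterone hydroxylase, and Cyp2a5, the coumarin hydroxylase, are close paralogs on chromosome 7 and also split by segment, with nearly the same letters before their start sites. Cyp2a4 (26307169 to 26315088) was at 612, 599 and 505 CPM in S3-like and 19.9, 19.1 and 11.8 CPM in S1-like cells, ratios of 30.8 [25.3 to 37.7], 31.4 [26.1 to 38.0] and 42.8 [34.6 to 53.4]. Cyp2a5 (26835305 to 26843548) was at 43.5, 38.1 and 39.6 CPM in S1-like and 5.71, 1.31 and 21.0 CPM in S3-like cells, so S1-like cells were 7.62 [3.23 to 23.6], 29.0 [5.17 to 1151] and 1.88 [1.23 to 3.01] times as high. The S3-like levels of Cyp2a5 rest on 5, 1 and 23 UMIs. In clusters 0 and 1 of the vehicle library both genes stood above their S1-like level, Cyp2a4 at 183 and 155 CPM and Cyp2a5 at 76.3 and 60.3 CPM. The split thus holds between S1-like and S3-like cells only. Cyp2a4 shares 44.3% and Cyp2a5 12.4% of the 50-base stretches of the last 500 transcript bases with other genes, mostly with each other, so some reads of the 2 genes cannot be told apart. The promoter stretches of both, from RefSeq on GRCm38.p6, are shown to compare this pair, 5′ to 3′ on the plus strand; capitals mark the positions at which they differ. Cyp2a4 covers chr7:26306943-26307158 and Cyp2a5 covers chr7:26835089-26835304.
Cyp2a4: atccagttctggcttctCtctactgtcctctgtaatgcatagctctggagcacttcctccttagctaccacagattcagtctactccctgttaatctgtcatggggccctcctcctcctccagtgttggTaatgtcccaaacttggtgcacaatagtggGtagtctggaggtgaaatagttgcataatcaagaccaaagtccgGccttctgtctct
Cyp2a5: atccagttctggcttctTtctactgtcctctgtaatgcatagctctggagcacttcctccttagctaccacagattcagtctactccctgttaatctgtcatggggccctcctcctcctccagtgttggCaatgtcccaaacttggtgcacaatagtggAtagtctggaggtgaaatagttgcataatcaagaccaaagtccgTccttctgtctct
The aligned stretches are identical at 212 of 216 positions (98.1%). Both hold the letters CAAAGTCC, an element of the nuclear receptor HNF4 searched on both strands, which 5 of 38 member windows and 1.20% of 32851 windows of 250 bases in the table hold. A match of letters is a description and not a binding site.

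Higher in S1-like cells were also Cyp2e1, at 4.83, 5.39 and 4.69 times the S3-like level, Cyp2j13, at 5.82, 5.02 and 5.01 times, and Cyp4b1, at 2.52, 1.97 and 1.57 times. Cyp2j9, Cyp2d22 and Cyp2c23 followed, but from 2 to 11 UMIs in S3-like cells. For Cyp2c23 the vehicle interval of the S1-like to S3-like ratio, 1.78 [0.869 to 4.23], included 1. Cyp2j5 was nearly even, at 1.16, 1.17 and 1.19 times its S1-like level in S3-like cells, and Cyp27a1 passed 1.5-fold in none of the 3 libraries. Cyp2j6, at 1.84 times its S1-like level in S3-like cells, and Cyp4f13, at 0.564 times, passed in the ruxolitinib library only. Divided by the median gene, Cyp2j5 passed 1.5-fold towards S3-like cells, and Cyp4b1, Cyp2a5 and Cyp2c23 no longer passed towards S1-like cells in all 3 libraries.

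**Figure D3:**
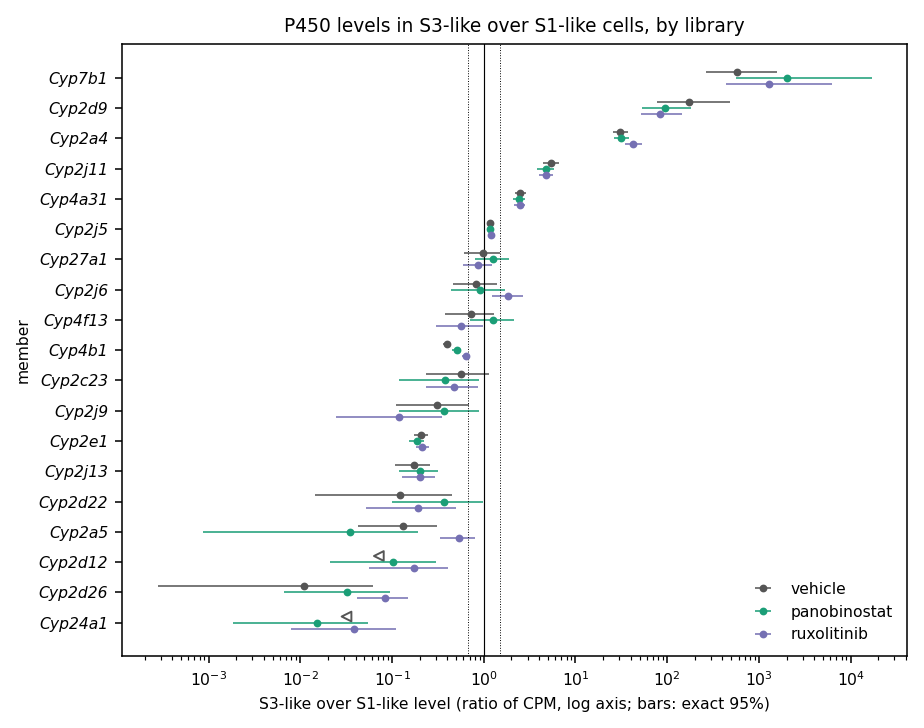
Ratio of the S3-like to the S1-like level for the 19 members with enough UMIs (log axis), one point per library with its exact 95% counting interval; dotted lines mark 1.5-fold and open triangles mark upper limits where S3-like cells had 0 UMIs. Cyp7b1, Cyp2d9 and Cyp2a4 lie far to the S3 side in each library, and Cyp24a1, Cyp2d26 and Cyp2d12 far to the S1 side.

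Drug libraries were then set beside vehicle in all proximal tubule-like cells, to describe which P450 genes differed under each compound. A gene was counted as past 1.5-fold when its ratio reached 1.5 in either direction with at least 10 CPM in 1 of the 2 libraries. In the panobinostat library 1 of 19 members was past 1.5-fold, against 2.18% of all genes; in the givinostat library 5 of 19, against 2.49%; and in the ruxolitinib library 1 of 20, against 3.0%. The ruxolitinib member was Cyp27b1, which reached 10 CPM only in the ruxolitinib library and so entered the count through its own difference. No other member passed there. The median log2 ratio of the members was -0.08, 0.02 and 0.00 (panobinostat, givinostat and ruxolitinib), beside 0.01, 0.06 and 0.09 for all genes. Above vehicle were 6 of 19, 11 of 19 and 10 of 20 members, beside 53.5%, 63.0% and 67.7% of all genes that passed the same level.

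**Figure D4:**
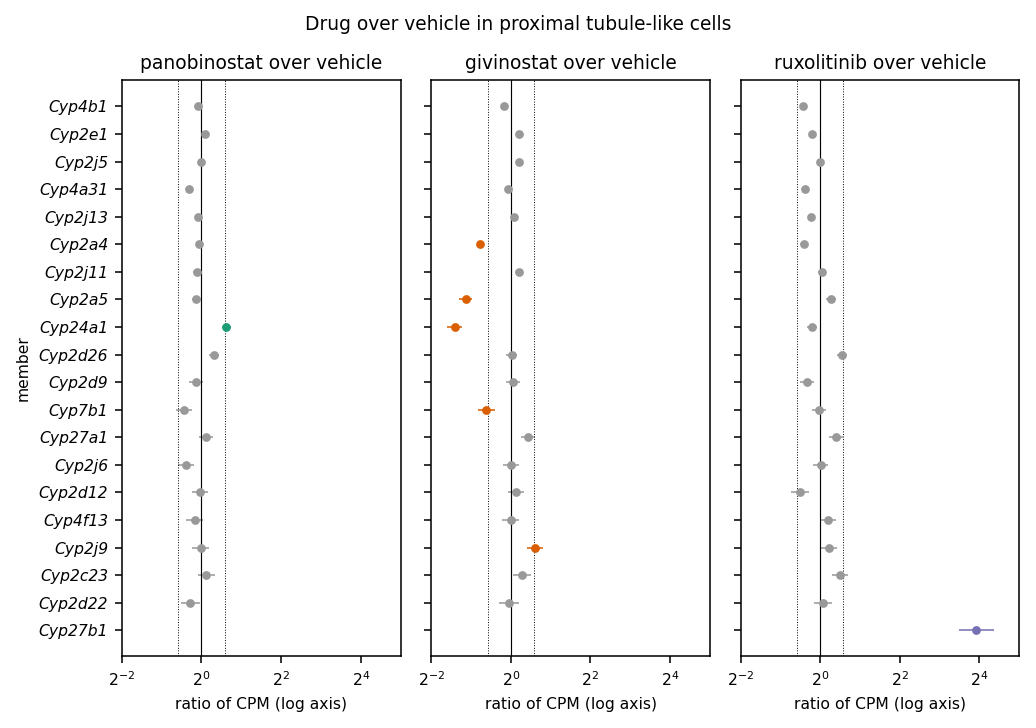
Ratio of each drug library to the vehicle library in proximal tubule-like cells (log axis) with exact 95% counting intervals, for members with at least 10 CPM. Lines mark 1.5-fold in each direction; Cyp27b1 in the ruxolitinib library stands at 15.1, and Cyp24a1 stands at 1.55 in the panobinostat and 0.376 in the givinostat library.

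The 2 enzymes at the ends of the vitamin D pathway differed most. Cyp27b1 (chromosome 10, 127048250 to 127053006), the 1-alpha-hydroxylase that makes the active hormone, had 48, 101, 135 and 749 UMIs in proximal tubule-like cells, which is 2.28, 4.37, 7.25 and 34.4 CPM. The ruxolitinib library was at 15.1 [11.3 to 20.7] times vehicle, while panobinostat and givinostat stayed under 10 CPM and entered no count. Its RNA lay in S1-like cells, at 6.31, 9.47, 21.9 and 74.5 CPM, and no Cyp27b1 UMI was found in S3-like cells of any library. There the ratios to vehicle were 1.502 [1.01 to 2.26], 3.48 [2.40 to 5.13] and 11.8 [8.58 to 16.7], with the ruxolitinib library far above the rest. In cluster 4 alone Cyp27b1 was at 9.60, 16.5, 41.3 and 121 CPM.

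At least 1 Cyp27b1 UMI was found in 27 of 606 (4.46% [2.96 to 6.42]), 56 of 936 (5.98% [4.55 to 7.70]), 46 of 348 (13.2% [9.84 to 17.2]) and 208 of 765 (27.2% [24.1 to 30.5]) S1-like cells, with exact Clopper-Pearson intervals. With each cell thinned to 4000 UMIs, which left out 18, 120, 0 and 22 shallower cells, these shares of cells with a Cyp27b1 UMI were 2.72%, 3.06%, 5.46% and 17.1%. T-like cells gave 0 of 657, 1 of 358, 3 of 685 and 1 of 452, at median depths of 4690, 4138, 7385 and 5268 UMIs against 8862, 7494.5, 12575.5 and 9800 in S1-like cells. The ruxolitinib share therefore remained the highest at matched depth. In the 5 proximal tubule-like clusters with at least 20 Cyp27b1 UMIs in the pair of libraries, ruxolitinib stood at 5.76 to 17.8 times vehicle, and above it in all 5. Vehicle had only 3 to 18 Cyp27b1 UMIs in these clusters, so each met that level through the ruxolitinib library. As parts of the same pair of libraries, the clusters do not repeat the result. Cyp27b1 ordered the libraries as Tpm3-rs7 did, with givinostat and ruxolitinib above the other two; the part of that split was not tested. Cyp27b1 had the widest drug ratio among the members in proximal tubule-like cells. The 250 bases before its RefSeq start on GRCm38.p6 are shown, plus strand, chr10:127047996-127048245, 5′ to 3′. Capitals mark TTC and GAA with 4 bases between them.
Cyp27b1: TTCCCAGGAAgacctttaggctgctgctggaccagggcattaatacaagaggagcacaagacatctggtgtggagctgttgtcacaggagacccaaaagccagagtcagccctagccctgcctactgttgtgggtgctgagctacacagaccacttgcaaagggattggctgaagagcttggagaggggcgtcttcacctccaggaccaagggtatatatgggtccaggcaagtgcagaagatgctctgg
This pattern, a STAT-type element with 4 bases between its ends, was found in 5.85% of all windows and in 1 of 38 member windows. The window holds none of TTCNNNGAA (the same element with 3 bases between, in 7.02% of all windows), TGACGTCA (the cyclic AMP response element, 1.55%) or CAAAGTCC (1.20%), on either strand. These matches and their absence describe the letters of these 250 bases only.

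Cyp24a1 (chromosome 2, 170482708 to 170497145), the mitochondrial 24-hydroxylase that breaks active vitamin D down, was at 44.9, 69.5, 16.9 and 39.0 CPM from 947, 1607, 315 and 850 UMIs in proximal tubule-like cells. Panobinostat was at 1.55 [1.43 to 1.68] times vehicle and givinostat at 0.376 [0.330 to 0.428] times vehicle, so the libraries of the 2 deacetylase inhibitors lay on opposite sides. Ruxolitinib was at 0.869 [0.791 to 0.954]. In S1-like cells Cyp24a1 was at 108, 173, 47.1 and 72.1 CPM, with ratios of 1.61 [1.47 to 1.76], 0.438 [0.376 to 0.509] and 0.67 [0.60 to 0.748]. In S3-like cells only 0, 2, 0 and 3 Cyp24a1 UMIs were counted, which puts the vehicle S1-like level at least 31.4-fold higher.

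The 2 directions differed in how widely they were seen among clusters. Cyp24a1 in the givinostat library was below vehicle in all 7 proximal tubule-like clusters with at least 20 UMIs, at 0.195 to 0.695 times. In the panobinostat library Cyp24a1 was above vehicle in 2 of 7 clusters, numbers 4 and 6, and below it in 5. Clusters 4 and 6 held 653 and 580 of its 1607 UMIs in that library. In each of the 5 clusters below vehicle the Poisson intervals of the 2 libraries overlapped. Cluster 3, for example, was at 64.3 [54.5 to 75.3] CPM against 84.0 [70.6 to 99.3] CPM in vehicle. For givinostat and vehicle the intervals overlapped in clusters 0 and 9 only. In cluster 4 panobinostat was at 277 CPM against 155 CPM in vehicle, and in cluster 6 at 178 CPM against 89.7 CPM. Without cluster 1, the cluster led by Pdk4, Angptl4 and Cyr61, the pooled panobinostat ratio of Cyp24a1 was 1.45 and no longer past 1.5-fold.

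S1-like cells with at least 1 Cyp24a1 UMI made up 33.2%, 35.0%, 16.7% and 18.2%, and 22.8%, 28.2%, 9.20% and 12.9% after thinning to 4000 UMIs, against 1.52%, 1.12%, 0.730% and 1.33% of T-like cells. A Cyp24a1 UMI was found in 25.9%, 33.9%, 17.4% and 13.9% of S1-like cells with a Cyp27b1 UMI and in 33.5%, 35.1%, 16.6% and 19.7% of the other S1-like cells. UMIs of both enzymes were found together in 7, 19, 8 and 29 cells. The third mitochondrial enzyme, Cyp27a1, a sterol 27-hydroxylase that also hydroxylates vitamin D, was at 21.8, 23.6, 29.4 and 28.5 CPM in proximal tubule-like cells, with the givinostat library at 1.35 [1.19 to 1.53] times vehicle.

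**Figure D5:**
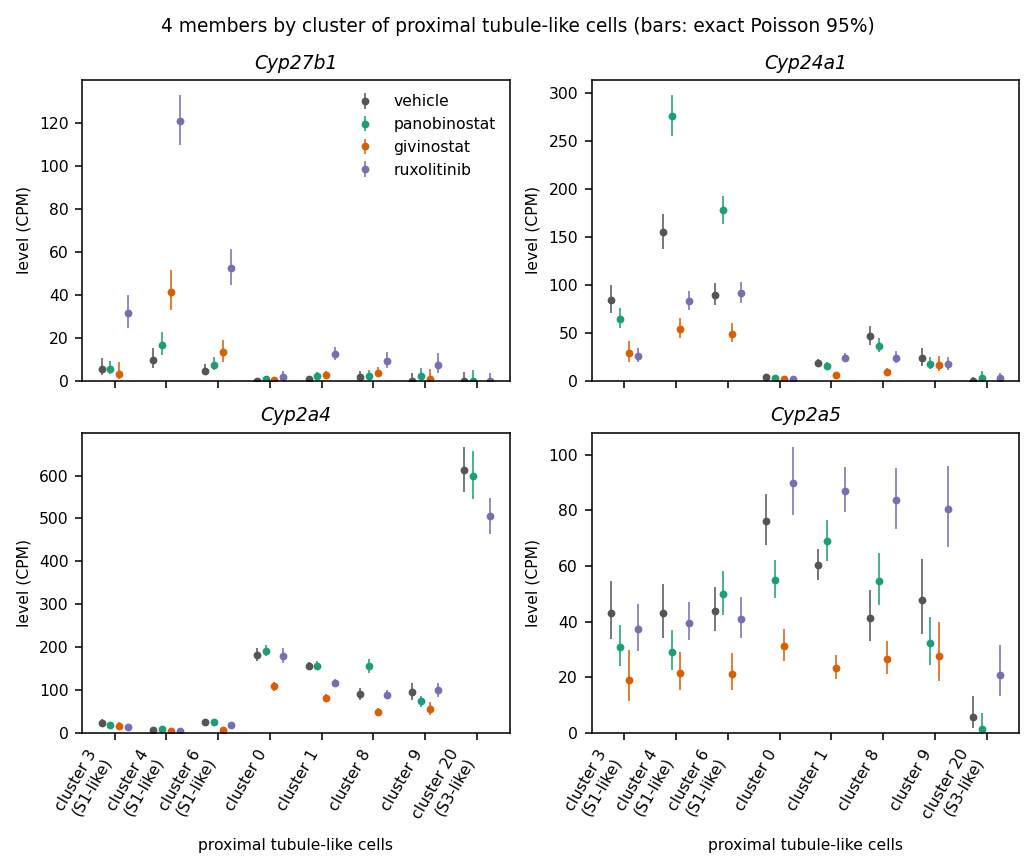
Level (CPM) of Cyp27b1, Cyp24a1, Cyp2a4 and Cyp2a5 in single proximal tubule-like clusters, one point per library with its exact Poisson 95% interval, for libraries with at least 50 cells in the cluster. Cyp27b1 is highest in the ruxolitinib library in cluster 4, at 121 CPM, and Cyp24a1, Cyp2a4 and Cyp2a5 of the givinostat library lie below vehicle in the 7 clusters shown for it.

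The Cyp2a pair was lower in the givinostat library. Cyp2a4 had 2721, 2870, 1412 and 2104 UMIs and was at 129, 124, 75.8 and 96.6 CPM in proximal tubule-like cells, with givinostat at 0.587 [0.550 to 0.627] times vehicle; with equal segment weights the Cyp2a4 ratio was 0.701 and not past 1.5-fold. Cyp2a5 was at 53.3, 48.8, 24.3 and 64.3 CPM, with givinostat at 0.457 [0.408 to 0.510]. Both genes were below vehicle in all 7 clusters with at least 20 UMIs, at 0.282 to 0.657 times for Cyp2a4 and 0.389 to 0.643 times for Cyp2a5. They parted in the ruxolitinib library, where Cyp2a4 was at 0.749 [0.707 to 0.793] and Cyp2a5 at 1.21 [1.11 to 1.31] times vehicle. Since part of their reads cannot be told apart, the 2 ratios are not fully separate measurements.

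Cyp7b1 was at 23.2, 17.1, 15.1 and 22.6 CPM in proximal tubule-like cells, with givinostat at 0.652 [0.561 to 0.756] times vehicle. Nearly all of its UMIs came from S3-like cells, of which the givinostat library had 46 of its 1199 proximal tubule-like cells and the vehicle library 74 of 1799. With a stricter cell filter, under which new clusters gave 60 S3-like cells in all, the givinostat ratio of Cyp7b1 was 1.15, above vehicle. Cyp2j9 in the givinostat library was at 1.52 [1.32 to 1.76] times vehicle and above it in 4 of 4 clusters, and at 1.43 with totals scaled by TMM or by DESeq2 size factors.

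Several ruxolitinib values lay just inside 1.5-fold. Cyp2d26 was at 1.47 [1.35 to 1.60], Cyp2c23 at 1.42 [1.23 to 1.63], Cyp4b1 at 0.739 [0.726 to 0.751] and Cyp2d12 at 0.706 [0.606 to 0.820] times vehicle. In S1-like cells 4 of 18 members passed in that library, against 3.86% of all genes: Cyp27b1 was higher, and Cyp4b1 at 0.652 [0.629 to 0.676], Cyp2a4 at 0.594 [0.453 to 0.777] and Cyp2d12 at 0.552 [0.463 to 0.658] were lower. Cyp2a4 was low there, at 19.9, 7.85 and 11.8 CPM (vehicle, givinostat and ruxolitinib), beside 5.62, 2.31 and 3.77 CPM in T-like cells. Cyp2d12 was at 86.7 CPM in vehicle and 29.5 CPM in ruxolitinib in cluster 4, at 40.4 and 30.7 CPM in cluster 6 and at 15.8 and 15.1 CPM in cluster 3. S1-like cells of the panobinostat library had 1 of 17 members past 1.5-fold (2.24% of all genes), which was Cyp24a1. The givinostat library had 5 of 18 (7.34%): Cyp24a1, Cyp2a4 and Cyp2a5 were lower, and Cyp27b1 and Cyp2j9, the latter at 1.69 [1.35 to 2.12], were higher. Cyp27b1 was at 6.31 CPM in S1-like cells of the vehicle library, under the level of 10 CPM. It therefore entered the givinostat and ruxolitinib counts through the drug libraries.

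In the few S3-like cells 0 of 13 members were past 1.5-fold in the panobinostat library, against 27.4% of all genes, and 4 of 16 in the ruxolitinib library, against 25.7%. Cyp2a5 had 5 UMIs in the vehicle and 23 in the ruxolitinib library, 3.68 [1.37 to 12.4] times vehicle. Cyp2d26 had 1 and 11 UMIs. The intervals of Cyp20a1 and Cyp2j6 included 1. The large shares of all genes past 1.5-fold show how little these 74 to 87 cells can separate, and Cyp7b1, Cyp2a4 and Cyp2d9 did not pass.

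Outside the proximal tubule, members marked other cell classes. Cyp4f18 (chromosome 8, 71988482 to 72009626), which hydroxylates leukotriene B4, was at 364 CPM [325 to 407] in the 95 neutrophil-like cells and at 73.5, 128, 130 and 93.5 CPM in monocyte-like cells. In macrophage-like cells Cyp4f18 was at 3.995, 51.4, 74.9 and 46.1 CPM, from 5, 51, 151 and 78 UMIs. The ratios of Cyp4f18 to vehicle there were 12.9 [5.17 to 41.3], 18.8 [7.86 to 58.6] and 11.6 [4.74 to 36.6], where 22.0%, 18.0% and 19.4% of all genes were past 1.5-fold. The vehicle library was thus lowest, with the 3 drug libraries above it. Because the drug ratios share that library, this is not a repeated result.

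Cyp4f18 UMIs were found in 3 of 156, 33 of 146, 76 of 179 and 47 of 191 macrophage-like cells, and in 2.11%, 19.4%, 21.2% and 13.3% of them after thinning to 4000 UMIs. Proximal tubule-like cells, which should lack the gene, gave 4 of 1799, 5 of 2526, 6 of 1199 and 4 of 1759, at the median depths given above, against 6250.5, 5455, 8692 and 6874 UMIs in macrophage-like cells. In the larger macrophage-like cluster alone, number 11, Cyp4f18 was at 5.19, 59.1, 82.2 and 52.8 CPM. Of the markers of neighbouring cells in the macrophage-like class, the 6 monocyte markers summed to 859, 1140, 1181 and 1122 CPM with none at 0. The 5 neutrophil markers summed to 24.0, 23.2, 42.7 and 42.0 CPM with 4, 2, 0 and 1 of them at 0. The 7 dendritic markers summed to 642, 689, 486 and 760 CPM with 1, 1, 0 and 1 at 0, and the 6 macrophage markers to 10236, 8283, 8797 and 8929 CPM with none at 0. The vehicle library thus had the lowest monocyte and the highest macrophage sum, and the neutrophil sum was lower in the vehicle and panobinostat libraries; their part in the Cyp4f18 difference was not tested. The monocyte-like ratios of Cyp4f18 to vehicle were 1.74 [1.34 to 2.27], 1.78 [1.40 to 2.27] and 1.27 [0.977 to 1.67], against 15.1%, 15.3% and 17.1% of all genes past 1.5-fold. The related Cyp4f16 was in a narrow range there, at 84.3, 79.1, 84.2 and 72.1 CPM, and Cyp27a1 was at 59.1, 50.4, 62.5 and 68.0 CPM in macrophage-like cells, above its proximal tubule-like level.

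Intercalated-like cells, the acid-secreting cells of the collecting duct, held the highest levels of Cyp2s1 (79.2 CPM [70.6 to 88.6] over all libraries), Cyp4v3 (26.7 CPM), Cyp39a1 (26.2 CPM), an oxysterol 7-alpha-hydroxylase, and Cyp1a1 (19.99 CPM). Cyp1a1 (chromosome 9, 57687928 to 57703824), the classic target of the aryl hydrocarbon receptor, had 7, 13, 14 and 43 UMIs there in 50, 48, 51 and 56 cells. Ruxolitinib was at 40.7 CPM against 7.51 CPM in vehicle for Cyp1a1, a ratio of 5.42 [2.42 to 14.3], where 24.2% of all genes were past 1.5-fold. Of the 43 Cyp1a1 UMIs in that library 13 came from a single cell. After thinning to 4000 UMIs, the shares of intercalated-like cells with a Cyp1a1 UMI were 2.00%, 9.30%, 3.92% and 5.36%, which did not keep the order of the CPM, so no order is read from them. Cyp1a1 was at or near 0 in proximal tubule-like cells, with 0 to 0.0475 CPM.

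Distal tubule classes held Cyp2j6, at 115, 76.1 and 119 CPM in principal or connecting tubule-like cells (vehicle, panobinostat and ruxolitinib) and at 114, 84.9, 110 and 98.5 CPM in distal convoluted tubule-like cells, several times its proximal tubule-like level. Cyp2j11 was at 84.3, 90.0, 107 and 66.8 CPM in distal convoluted tubule-like cells, about as high as in the proximal tubule-like class. Cyp2u1, a fatty acid hydroxylase, was at 28.4, 24.5, 32.2 and 26.0 CPM in those cells. In endothelial-like cells Cyp20a1 was at 77.2 CPM [65.9 to 89.9], Cyp2d22 at 42.1 CPM [33.9 to 51.8] and the retinoic acid hydroxylase Cyp26b1 at 18.2 CPM [12.98 to 24.9] over all libraries. Fibroblast or mural-like cells held Cyp1b1, which metabolises oestrogens and retinoids, at 75.6 CPM [63.9 to 88.9] and Cyp4f15 at 38.6 CPM [30.3 to 48.4]; that cluster was also led by the urothelial genes Upk3a and Psca, so either kind of cell can be the source.

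Genes that work with P450 enzymes were counted in proximal tubule-like cells by the same rule, to be read against the 2.18%, 2.49% and 3.0% of all genes past 1.5-fold there (panobinostat, givinostat and ruxolitinib). Of the electron donors 6 of 8 listed genes passed the level of 10 CPM and 0 were past 1.5-fold in any drug library; cytochrome b5, Cyb5a, was at 1727, 1975, 1640 and 1569 CPM and the mitochondrial ferredoxin Fdx1 at 213, 246, 209 and 238 CPM. Of 11 haem genes, 1 was past 1.5-fold in 1 library. Alas1, the rate-limiting enzyme of haem synthesis, was at 186, 119, 129 and 225 CPM, with panobinostat at 0.639 [0.608 to 0.671] and givinostat at 0.692 [0.657 to 0.728] times vehicle. Cpox, second to Alas1 in mean level, was at 132, 135, 131 and 124 CPM. Of 20 transcription factors 15 passed the level, with Hnf4a at 216, 218, 237 and 234 CPM; Dbp, a circadian factor that drives P450 genes in liver and kidney, was at 128, 91.4, 68.5 and 134 CPM, and its givinostat ratio of 0.534 [0.499 to 0.571] alone was past 1.5-fold. Nr1h4, the transcription factor second to Hnf4a in mean level, was at 166, 148, 151 and 146 CPM. The soluble epoxide hydrolase Ephx2 was at 250, 264, 251 and 228 CPM, and Ephx1 stayed under 10 CPM. Of the aryl hydrocarbon receptor targets Tiparp and Nqo1, neither was past 1.5-fold.

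In the vitamin D list 9 of 10 genes passed the level, of which 2 were past 1.5-fold in the panobinostat library, both lower, and 0 in the givinostat and ruxolitinib libraries. The receptor Vdr was at 113, 118, 122 and 93.7 CPM, and the phosphate carrier Slc34a1 and megalin, Lrp2, had the highest levels, with means of 4439 and 1419 CPM. The calcium-binding S100g was at 87.2, 40.3, 70.8 and 79.5 CPM and Calb1 at 15.9, 7.39, 19.9 and 15.5 CPM, with panobinostat ratios of 0.463 [0.427 to 0.501] and 0.464 [0.383 to 0.559]. Both are known as genes that vitamin D induces and as markers of the distal tubule. The part of free distal RNA in their levels was not tested. The median log2 ratio of the vitamin D list was -0.02, 0.20 and 0.22 (panobinostat, givinostat and ruxolitinib), beside 0.01, 0.06 and 0.09 for all genes.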

How the data were processed

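The authors deposited a matrix of UMI counts per gene and cell, made with Cell Ranger 3.0.1 on mm10 per the submitters' processing notes. A cell had to show 200 genes, 500 UMIs and a mitochondrial share under 50%; this removed 226 of 16003 cells, all for too few genes. The highest mitochondrial share was 39.96% to 39.98% in each library. Counts were scaled to 10000 per cell; 2000 variable genes without the members, 30 components and 15 neighbours gave Leiden clusters at resolution 1.0 with scanpy 1.11.5 and leidenalg 0.10.2, and intervals were computed with scipy 1.17.1 in Python 3.11.15. To be named, a cluster needed 3 markers of a class exceeding their across-cluster median by 1 log2 unit, no more markers of another class than its own among its 10 top genes, and either an own marker there or a lead of 0.5 over the next class. Segments needed 3 markers and the same lead. These thresholds of the lead were set after seeing the data. Scrublet called 0.0509% to 0.101% of cells, which is too few to have worked, so doublets stayed in.

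UMIs were summed per library and class with at least 50 cells and given as CPM. Ratios carry exact conditional binomial, levels exact Poisson and shares exact Clopper-Pearson 95% intervals; log2 ratios used a pseudocount of 5 CPM. The ratio intervals were tested on simulated Poisson counts. That simulation shares the assumption of the intervals, so it cannot show whether they are wide enough for UMIs clumped in single cells. Described one by one were members with at least 20 CPM in a named class of a library or past 1.5-fold with at least 10 CPM in proximal tubule-like cells or a segment, and of the partner lists those past 1.5-fold and the 2 most abundant. Members and lists were chosen with earlier results of these data known, and motifs after seeing the data. Shared transcript ends were counted as 50-base stretches of the last 500 bases in GENCODE vM21. Promoters came from RefSeq, where 34 of 44 members had a window. The results were recomputed with a stricter cell filter of 500 genes, 1000 UMIs and 20% mitochondrial UMIs, resolutions of 0.5 and 1.5, members kept for clustering, Scrublet doublets left out, totals without mitochondrial genes, TMM totals (edgeR 4.0.16), DESeq2 1.42.0 size factors (R 4.3.3), other level filters, pseudocounts of 1 and 20 CPM and equal segment weights; leaving out cluster 1, centring segment ratios and using all 4 libraries were added after seeing the data.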

Additional observations from a re-analysis of the deposited data

Results flagged for a closer look

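Cyp24a1 in proximal tubule-like cells stood out because the libraries of the 2 histone deacetylase inhibitors lay on opposite sides of vehicle, at 1.55 times (panobinostat) and 0.376 times (givinostat) its level. Panobinostat was nevertheless below vehicle in 5 of 7 clusters, and at 1.45 without cluster 1, no longer past 1.5-fold. The difference was not tested, since each group has 1 library, and it is given as values with no explanation.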

How the results depend on the processing

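Of the count and median results under the planned and added alternatives, 79 values stayed close to those reported and 13 moved. With no filter on low levels 10, 15 and 7 members were past 1.5-fold (panobinostat, givinostat and ruxolitinib), where 16.3%, 18.5% and 18.6% of all genes were, so most of these rest on few UMIs. In the givinostat library the stricter cell filter left 3 members (Cyp24a1, Cyp2a4 and Cyp2a5), a filter at 50 CPM 2, because Cyp24a1, Cyp7b1 and Cyp2j9 lie below it, and equal segment weights 3 (Cyp24a1, Cyp2j9 and Cyp2a5, with Cyp2a4 at 0.701). In the ruxolitinib library the stricter cell filter gave 3 members, with Cyp2d9 and Cyp2d26 beside Cyp27b1; TMM totals, DESeq2 size factors, equal segment weights and leaving out cluster 1 each gave 2, with Cyp2d12 beside Cyp27b1; and a filter at 50 CPM gave 0 and a median log2 ratio of -0.21. Leaving out cluster 1 kept 1 member in the panobinostat library, but Cyp7b1 in place of Cyp24a1. The givinostat ratio of Cyp7b1 turned to 1.15 under the stricter cell filter, where new clusters gave 60 S3-like cells against 285 in the main setting. Over 12 alternatives Cyp27b1 with ruxolitinib ranged from 12.1 to 15.1, Cyp24a1 from 1.45 to 1.71 with panobinostat and from 0.353 to 0.421 with givinostat, Cyp2a4 from 0.551 to 0.701 and Cyp2a5 from 0.425 to 0.497. The other level filters cannot move the ratio of a single gene, and leaving out Scrublet doublets removed only 2 to 4 cells per library. These alternatives therefore say nothing on stability. The same 5 members were higher in S3-like cells in 7 of 7 alternatives; 7 to 10 were higher in S1-like cells. The stricter cell filter gave no segment value, with 13 to 18 S3-like cells per library. Leaving out replicates was not possible with 1 library per group. No paired analysis was possible because each group has a single library. Members under 10 CPM, small classes and S3-like cells are limited by depth.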
